A study of Sus scrofa with 96 samples.

Results

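The 150 transcripts described here varied more between the synovia of unoperated knees than nearly all other transcripts that met the limits on length and level given below. They were chosen out of the 46295 Ensembl transcripts in the quantification tables. Each level is given in counts-per-million (CPM), which is the estimated read count of a transcript scaled to the total of its library, and its log2 form is log2(CPM + 1). A member had to be longer than 300 bases, to have a mean of at least 5 CPM in CON synovia, and to lie within 4 log2 units of its level in CON cartilage. In addition, its median in operated synovia had to be within 0.5 log2 units of its median in CON synovia, and its standard deviation (SD) between knees had to be larger in CON synovium than in CON cartilage. Without the 2 conditions on the SD, 13890 transcripts met these limits, and 6431 of them had the larger SD in synovium. The 150 with the highest SD were kept, so the 13740 others of the 13890 are the comparison list below. The values that chose the members (their spread and level in CON synovium and CON cartilage, and the operated to CON difference in synovium) are given as a description and were not tested.

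The study asked how articular cartilage and synovium respond to injury and surgery of the anterior cruciate ligament. Adolescent Yucatan minipigs, females and castrated males, had the ligament of 1 knee cut and were euthanized 52 weeks later. The cut ligament was left untreated in the ACLT group, replaced by a bone–patellar tendon–bone allograft in the RECON group, and sutured with an extracellular matrix scaffold loaded with the animal's own blood in the REPAIR group. CON samples came from the intact opposite knee of operated animals, so they carry no sham operation and share their animal with an operated knee. Cartilage was taken from the medial femoral condyle and synovium from tissue attached to the medial meniscus. Each tissue gave libraries from 12 CON, 11 ACLT, 12 RECON and 12 REPAIR knees that are in the study's list of animals. Knee ACLT 12 is not in that list and entered no main comparison.

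Synovium is the thin membrane that encloses the joint cavity. Its lining holds macrophages and fibroblasts that secrete lubricating fluid, and beneath lie vessels, fat, nerves and connective tissue in amounts that differ between biopsies. Many mammalian genes give several transcripts (isoforms) that share most of their sequence through alternative promoters, splicing and polyadenylation. Salmon, the program used for these tables, divides each read among all transcripts it matches, by an iterative estimate of how abundant each is. A transcript with few reads of its own can therefore be assigned all or none of the reads that it shares with an isoform or a close paralog. Salmon also estimates an effective length for each transcript, which is its length corrected for the fragment sizes and the sequence biases of that library. The files hold transcript identifiers and do not pair them with gene names, so members are given by identifier and no function, position or sequence is assigned to them.

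Library totals ranged from 7483049 to 19992966 estimated reads in the 47 listed synovia and from 9043812 to 21937198 in the 47 listed cartilage samples.

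Before members are compared across samples, the labels were checked against the study's list of animals. The levels of 8 transcripts that separate females from castrated males in cartilage placed all 47 cartilage libraries and 45 of 47 synovium libraries with their listed sex. The 8 were picked on these cartilage libraries by listed sex, so only the synovium count is a separate check. The synovium libraries labelled CON 11 and REPAIR 7 went against it. ENSSSCT00000060930.3, which is no member and was chosen after its values were seen, was at 67.4 to 127.6 CPM in the other 22 synovia of castrated males and at 0 to 1.15 CPM in the other 23 of females. It was at 0.343 CPM in the library labelled CON 11, listed as a castrated male, and at 79.6 CPM in the library labelled REPAIR 7, listed as a female. Over 292 transcripts, these 2 libraries also correlated negatively with the cartilage of their own knee (r = -0.27 and -0.25). In the other 45 synovia that correlation was 0.133 to 0.856, with a median of 0.519. The 292 had passed the knee test described below. It used both tissues of the operated knees, so the choice favoured positive values there. The best cartilage match was of the same animal for 31 of the 45. The library labelled REPAIR 7 matched REPAIR 1 cartilage best (r = 0.59), listed for the animal of CON 11. That labelled CON 11 matched REPAIR 7 cartilage best (r = 0.63). Neither library was reassigned, and results that rest on them are given with and without them.

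Within CON synovium the members were mostly present or absent. In the counts of values at 0 given here, an estimated count that rounds to 0 reads is taken as 0. Of the 150 members, 149 were at 0 in at least 1 of the 12 CON synovia, 60 in 6 or more, and none in more than 10. Over all members and CON synovia, 42.7% of values were 0, against 0.935% in the comparison list. A high SD at such levels favours transcripts with values at or near 0, so these counts follow in part from the rule and are a description. The number of members at 0 was 49 to 73 per CON synovium. CON 1, the library with the lowest total (7483049 reads), was alone at the highest value for 36 members, and the part of depth in this was not tested. In bulk tissue, fewer cells of a type and less RNA per cell cannot be told apart.

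The member with the largest spread, ENSSSCT00000076822.2, was at 180.5 CPM in CON 1, 155.6 in CON 10, 140.6 in CON 4 and 134.5 in CON 6. It was at 46.9 CPM in CON 11, 40.0 in CON 7, 20.1 in CON 9, 14.5 in CON 5 and 6.68 in CON 8, and at 0 in CON 2, CON 3 and CON 12. Its SD of log2(CPM + 1) was 2.94. Thus 4 knees were high, 5 were lower and 3 had none. In the 35 operated synovia it was again at 0 in 11 libraries, with a median of 26.5 and a highest value of 261.3 CPM.

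The next 2 members were opposite to each other in every CON synovium. ENSSSCT00000042642.3 was at 71.3 CPM in CON 3, 48.8 in CON 7, 45.8 in CON 6, 35.4 in CON 10, 35.3 in CON 12, 32.5 in CON 8 and 29.4 in CON 5, and at 0 in CON 1, CON 2, CON 4, CON 9 and CON 11. ENSSSCT00000037530.3 was present in exactly those 5 knees, at 51.0 CPM in CON 1, 48.1 in CON 4, 37.4 in CON 9, 32.5 in CON 2 and 24.1 in CON 11, and at 0 in the other 7. Their lengths are 6440 and 6317 bases. The sum of both ranged from 24.1 to 71.3 CPM over the 12 CON synovia, while each alone ranged from 0 to its highest value.

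The last transcript inside the limit, ENSSSCT00000083647.1, had an SD of 1.95 and was at 0 in 7 CON synovia and at 25.2 CPM in the highest. The first outside, ENSSSCT00000069619.2, had an SD of 1.94 and ranged from 0 to 28.0 CPM with 3 libraries at 0. The median SD in CON synovium was 2.11 over the members and 0.296 over the comparison list, which is what the rule selected.

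**Figure D1:**
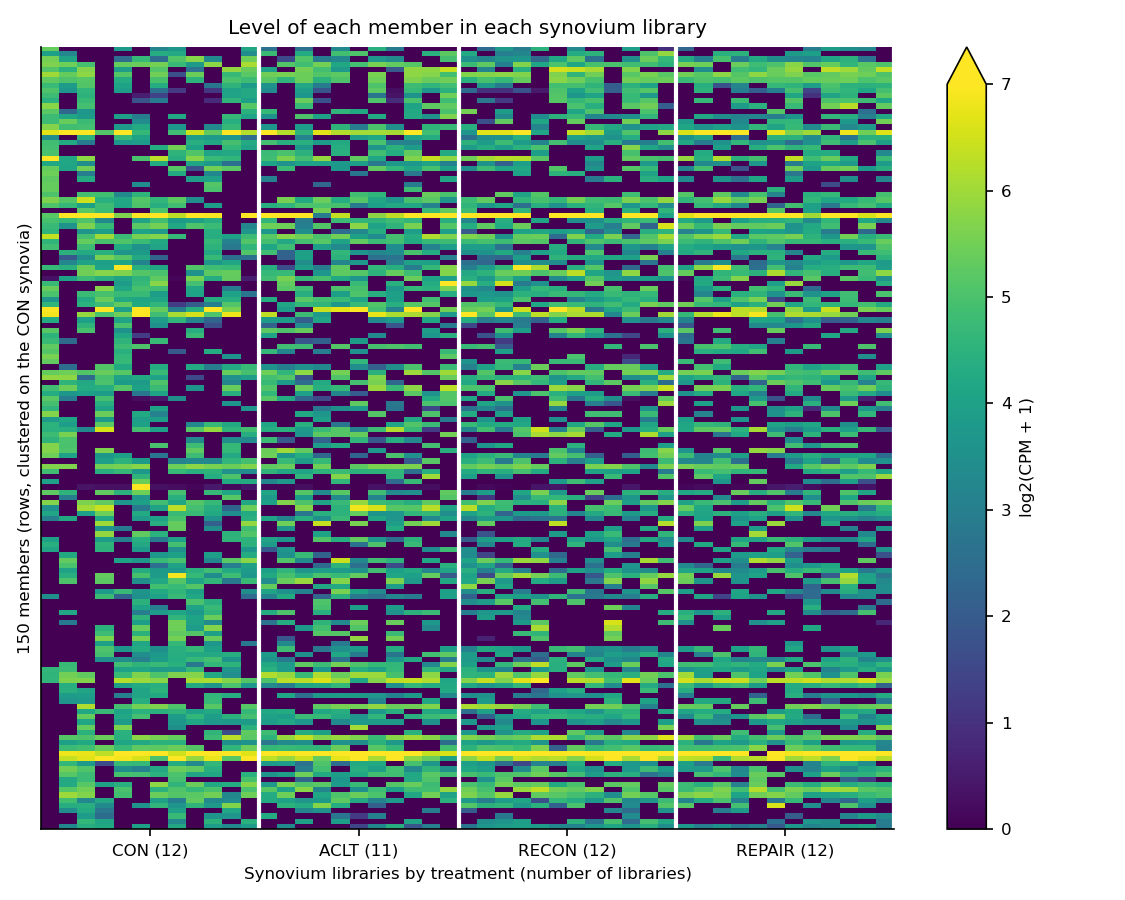
Level of each of the 150 members (rows, ordered by clustering on the CON synovia) in each of the 47 listed synovium libraries (columns, by group), in log2(CPM + 1). Dark cells are libraries in which a member was at or near 0, which was so for 42.7% of values in CON and 39.8% in operated synovia, and values above 7 have the colour of 7.

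Members were longer and less abundant than the comparison list. The median length was 4824 bases against 3391.5 bases. Per length, the median of their mean level in CON synovia was 6.11 TPM, Salmon's level corrected for length, against 15.8 TPM. The mean CON synovium level was under 10 CPM for 61 members and 50 CPM or more for 6, against 3329 and 2602 of the 13740 others. A lower mean in CON cartilage than in CON synovium was found for 111 of 150 members and for 11262 of the 13740 others. The estimated count was not a whole number in most of the libraries where it was above 0 for 145 members (96.7%), against 79.0% of the comparison list. Such counts arise where reads are shared between transcripts.

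The spread was measured again in libraries that the rule did not use for it. Over the 35 operated synovia, the median SD of log2(CPM + 1) was 1.86 for the members and 0.336 for the comparison list. An SD above 1 was found for 143 of 150 members (95.3%) and for 7.02% of the comparison list. Of the 150 transcripts with the highest SD in operated synovia among the 13890, 80 were members. The median member SD was 2.02 in ACLT, 1.97 in RECON and 1.79 in REPAIR synovium. Without the library labelled REPAIR 7 the median in operated synovium was 1.88 and the count above 1 was again 143.

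The same was measured in cartilage. Over the 35 operated cartilage libraries the median member SD was 1.52, against 0.315 in the comparison list, and 58 members were among the 150 highest. Values of 0 made up 39.8% of member values in operated synovium and 39.1% in operated cartilage, against 1.19% and 2.52% in the comparison list. Per library, 45 to 70 members were at 0 in operated synovium and 43 to 82 in operated cartilage. Presence in some libraries and absence in others was thus also seen in operated knees and in cartilage, in libraries that did not choose the members by their spread.

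**Figure D2:**
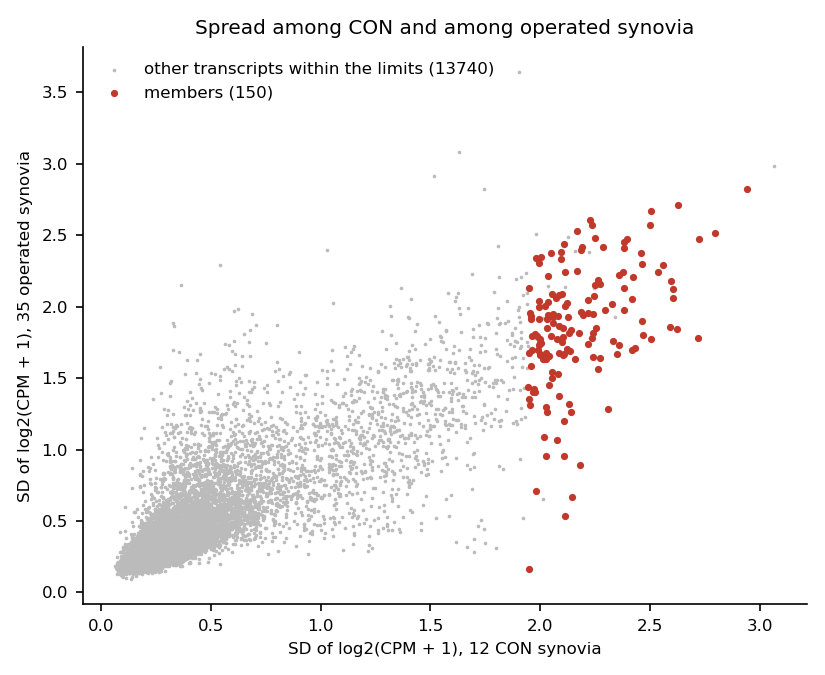
SD of log2(CPM + 1) over the 35 operated synovia (vertical axis) against that over the 12 CON synovia (horizontal axis), 1 point per transcript. The members lie to the right because the rule chose them there, and their median on the vertical axis was 1.86, against 0.336 for the 13740 others.

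To ask whether a member is exchanged against another transcript, each member was paired with the transcript, out of all 46295, whose sum with it varied least, relative to the member's own variance, over the 12 CON synovia. The pair was then examined in operated knees, which had no part in the choice. A negative correlation between 2 levels in CPM can also come from the fixed total of a library, so the same search was run for every transcript of the comparison list. These correlations are descriptions over libraries and carry no p-value.

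In operated synovium, 38 of 150 members (25.3%) had a correlation below -0.5 with their partner, against 4.88% of the comparison list. The variance of the sum was under 0.5 times the member's own for 30 members (20.0%), against 0.524%. In operated cartilage 36 members (24%) passed the limit on the correlation, against 1.15%, and 33 members passed it in both tissues. Leaving the libraries labelled CON 11 and REPAIR 7 out of the choice and of the measurement gave 31 members (20.7%) in synovium against 4.34%, and 32 (21.3%) in cartilage against 1.23%. For the other 112 members, the partner chosen on CON synovium did not pass the limit in operated synovium.

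Partners that passed were of similar length. Of the 38 members, 33 (86.8%) had a partner whose length was within 10% of their own, against 13 of the other 112 (11.6%). Length did not enter the search. In 14 of the 38 the partner was itself a member. Over all members, 6 pairs chose each other, and 5 of these passed the limit on the correlation. The counts by length, by membership of the partner and by both tissues were not taken for the comparison list. Whether they are particular to the members is therefore not known.

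ENSSSCT00000042642.3 and ENSSSCT00000037530.3 are such a mutual pair. In operated synovium, 22 libraries held only the first, 10 only the second and 3 both, and none had neither. In operated cartilage 29 held only the first, 4 only the second and 2 both. Their correlation was -0.82 in operated synovium and -0.78 in operated cartilage, and the sum in operated synovia had a lowest value of 8.00, a median of 43.4 and a highest value of 69.7 CPM.

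The most negative correlation among the named pairs was between ENSSSCT00000007781.5, a member of 3186 bases, and ENSSSCT00000092281.1, of 3174 bases. In CON synovia the member was at 32.2 CPM in CON 1, 29.8 in CON 3, 28.5 in CON 4, 22.5 in CON 6 and 8.8 in CON 5, and at 0 in the other 7 knees. Its partner was at 0 in CON 4, at 8.3 in CON 1 and CON 3, at 18.2 in CON 6 and at 23.0 in CON 5, and at 35.5 to 42.5 CPM in the 7 knees without the member. The sum was thus 28.5 to 42.5 CPM in all 12. In the 35 operated synovia the correlation was -0.97, and the sum was 34.9 ± 3.97 CPM (SD, n = 35) where the member alone was 12.3 ± 15.1 CPM. In operated cartilage the correlation was -0.92. This pair and the next were chosen after their values were seen.

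ENSSSCT00000066105.3 (8477 bases) and ENSSSCT00000006004.5 (8444 bases) were never above 0 together in CON synovia. The member was at 41.7 to 54.6 CPM in 10 CON synovia and at 0 in CON 3 and CON 7, where the partner was at 39.2 and 47.2 CPM and otherwise at 0. In operated synovium, 24 libraries held only the member, 9 only the partner and 2 both. The correlation was -0.96 there and -0.92 in operated cartilage, and the sum in operated synovia was 42.2 ± 5.28 CPM against 30.1 ± 19.7 CPM for the member.

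**Figure D3:**
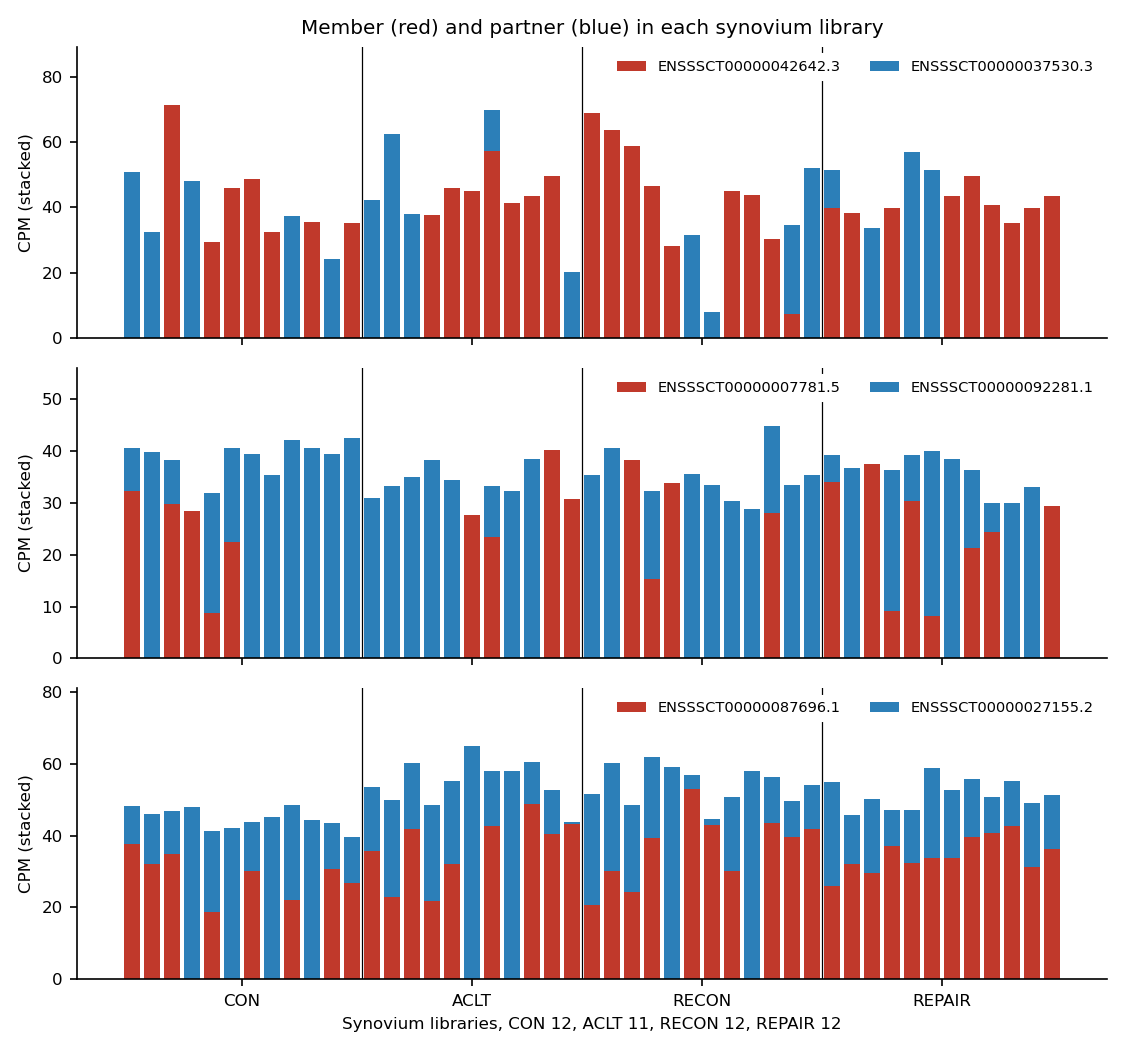
Stacked levels in CPM of a member (red) and its partner (blue) in each of the 47 listed synovium libraries, for 3 pairs, where the blue transcript of the upper pair is also a member. The height of a bar is the sum of the pair, which for ENSSSCT00000007781.5 and ENSSSCT00000092281.1 was 27.7 to 44.9 CPM in operated synovia while the colours exchanged.

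A second way to find partners used the fractional parts of the counts and not the correlation. Where reads are divided between exactly 2 transcripts, both counts are fractional but their sum is whole. A partner was accepted if the sum was whole within 0.001 reads in over 50% of the libraries where both were fractional, with at least 10 whole sums. This found a partner for 10 of 150 members (6.67%) and for 21.1% of the comparison list. Of the 10, 8 correlated below -0.5 with that partner in operated synovium (median r = -0.83), against 10.7% of the comparison transcripts that had such a partner (median r = -0.02). ENSSSCT00000087696.1 and ENSSSCT00000027155.2 had a whole sum in 68 of the 84 libraries in which both counts were fractional. In CON synovia the member was at 18.8 to 37.7 CPM in 8 knees and at 0 in CON 4, CON 6, CON 8 and CON 10. Its partner was at 42.0 to 48.0 CPM in those 4 and at 10.7 to 26.4 CPM in the other 8. Their correlation in operated synovium was -0.95. Most members had no partner by this measure.

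Effective length was examined because it enters the division of shared reads and differs between libraries. The log2 ratio of effective length to length was taken for the 13740 transcripts of the comparison list, none of them a member, in the 94 listed libraries. Its first principal component held 68.5% of the variance and its second 15.7%. The levels of all transcripts were then fitted on each component, with treatment as a covariate, by the quasi-likelihood test of edgeR, and p-values were adjusted over all transcripts tested (Benjamini-Hochberg). This fit was added after the data were seen.

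In operated synovium, 13 of 150 members passed an adjusted p of 0.05 on the second component, 6 higher and 7 lower as it rose, against 0.995% of all 39681 transcripts tested and 0.619% of the comparison list. Without the library labelled REPAIR 7 there were 10, against 0.866%. Operated cartilage, whose libraries are separate, gave 6 of 148 members tested, 3 in each direction, against 0.533% of all transcripts. With a stricter filter on low counts 4 of 125 members tested passed in synovium, against 0.325%, and 1 of 122 in cartilage, against 0.152%. On the first component 3 members passed in synovium, 1 higher and 2 lower, against 4.73% of all transcripts, and with the stricter filter none of 125 did (edgeR, 7 at an unadjusted p below 0.05), against 5.76%. Without the library labelled REPAIR 7 there were 3 on the first component, against 4.36%.

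Among those that passed in synovium, ENSSSCT00000057317.3 fell by 3.72 log2 units per SD of the second component (adjusted p = 1.08e-05, edgeR), and ENSSSCT00000048150.3 rose by 7.14 (adjusted p = 3.17e-05, edgeR). They had the smallest adjusted p in each direction. ENSSSCT00000057317.3 was at 0 in 20 of 35 operated synovia and at 42.6 CPM in the highest. ENSSSCT00000048150.3 was at 0 in 29 of 35, including all 12 REPAIR synovia, and at 56.8 CPM in the highest, so its slope rests on 6 libraries. It also rose in operated cartilage, by 4.98 log2 units (adjusted p = 4.44e-07, edgeR), where it was above 0 in 4 of 35 libraries.

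Members did not vary as 1 block. The mean correlation over all pairs of members was close to 0, at 0.0008 in CON synovium and -0.0012 in operated synovium. Clustering on the 12 CON synovia gave 47 sets, and 1 of them held 10 members or more. This set of 12 was at 0 throughout in CON 1 and CON 3, and no member of it was at 0 in CON 6 or CON 10. Its central member, ENSSSCT00000012690.4, was at 50.6 CPM in CON 10, 43.2 in CON 8, 40.3 in CON 6, 21.8 in CON 4 and 13.4 in CON 9, and at 0 in the other 7 CON synovia. The mean correlation within the set was 0.60 in CON synovium, where the set was made, and 0.06 in operated synovium.

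ENSSSCT00000012690.4 itself was at 0 in 27 of 35 operated synovia and at 71.5 CPM in the highest. Its partner ENSSSCT00000057618.3, of 7923 bases against 8009, was lowest in the CON synovia where the member was highest, at 16 CPM in CON 10, 25.9 in CON 8 and 26.7 in CON 6, and at 49.6 to 76.8 CPM in the others. The pair correlated at -0.88 in operated synovium and in operated cartilage. The member passed on the second effective-length component in both tissues, with 5.07 log2 units per SD in synovium (adjusted p = 0.00219, edgeR) and 3.14 in cartilage (adjusted p = 0.000571, edgeR).

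The next set, of 9 members, held together better outside the CON knees and was chosen for description after its values were seen. Its mean correlation was 0.69 in CON synovium, 0.44 in operated synovium and 0.34 in operated cartilage. All 9 were above 0 in CON 1, CON 3 and CON 12, and all 9 were at 0 in CON 4. Its central member, ENSSSCT00000058354.3, was at 57.1 CPM in CON 11, 51.4 in CON 3, 40.7 in CON 12, 34.1 in CON 1, 33.7 in CON 7, 21.2 in CON 2, 13.9 in CON 5 and 5.3 in CON 9, and at 0 in CON 4, CON 6, CON 8 and CON 10. It fell by 1.86 log2 units per SD of the second effective-length component in operated synovium (adjusted p = 0.0257, edgeR) and by 2.24 in operated cartilage (adjusted p = 0.0281, edgeR). Of the 36 pairs within the set, ENSSSCT00000045956.3 and ENSSSCT00000087696.1 had the same state most often, in 46 of 47 synovia, and were at 0 in 7 and 8 of them. The other 35 pairs had the same state in 21 to 40 of 47.

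The mean level of this set followed the second component in operated and in CON libraries of both tissues, with the operated groups pooled. Pearson's r was -0.91 in operated synovium (n = 35) and -0.89 in operated cartilage (n = 35), with Spearman's rho of -0.93 and -0.84. Without the 2 libraries farthest from the median of the component, r was -0.95 and -0.88. In CON synovium, where the set was made, r was -0.96 (n = 12), and in CON cartilage -0.85 (n = 12). The set of 12 went the other way, with r of 0.71 and rho of 0.79 in operated synovium and r of 0.59 and rho of 0.47 in operated cartilage. Without the 2 farthest libraries these r were 0.70 and 0.41, and r was 0.95 in CON synovium and 0.44 in CON cartilage. Points of such a correlation share the quantification program, since level and effective length come from the same estimate. The part of the effective-length estimate in the members' states was not tested.

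**Figure D4:**
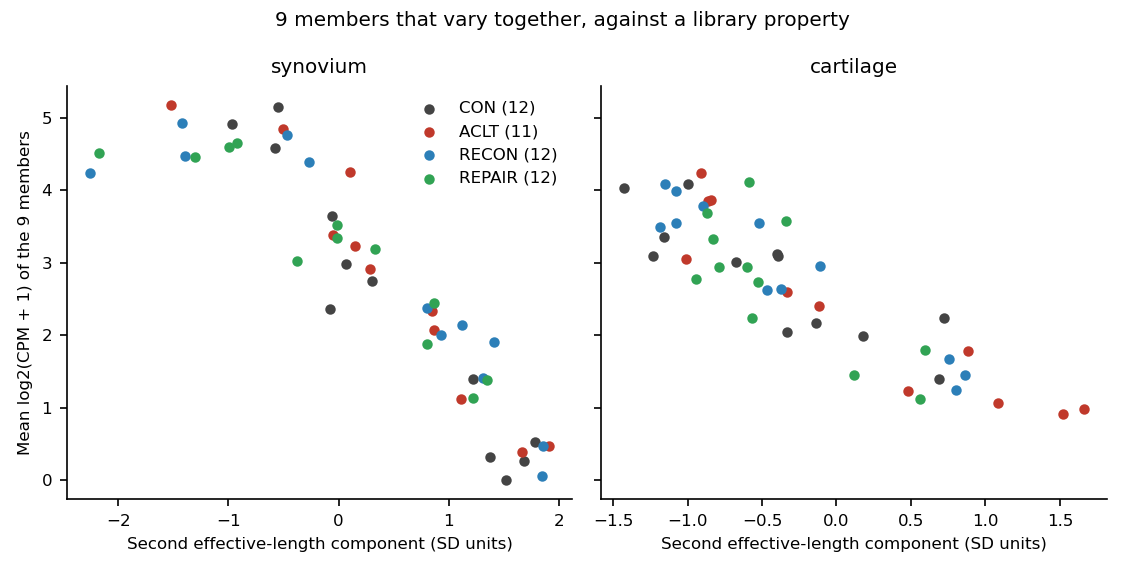
Mean log2(CPM + 1) of the set of 9 members in each listed library against the second component of effective length, in SD units, for synovium (left) and cartilage (right). The level fell as the component rose, with r of -0.91 in operated synovium and -0.89 in operated cartilage.

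To ask whether the level of a member follows the animal, an F test of the animal coefficients was run on the 24 synovia of the 12 animals with a listed CON and operated knee, with knee state as a covariate. It called 0 of 150 members (edgeR, adjusted p), against 0.0178% of 39310 transcripts, and 13 members had an unadjusted p below 0.05 (8.67%), against 6.38% of all transcripts and 11.5% of the comparison list. DESeq2 called 5 members, against 12.4% of the transcripts it gave an adjusted p, and limma on log2(CPM + 1) called 1, against 0.313%. The smallest adjusted p-values were 0.438 for ENSSSCT00000105861.1 and 0.507 for ENSSSCT00000079038.2. The former was at 0 in 2 of 12 CON and 5 of 35 operated synovia, and the latter in 3 and 5.

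Counted by presence, both synovia of an animal were in the same state for 61.0% of member values, and synovia of different animals for 60.2%. Without the animals of the libraries labelled CON 11 and REPAIR 7 these shares were 61.4% and 59.6%. In the comparison list, over all animals, they were 98.2% and 98.1%. Synovium and cartilage of an operated knee were in the same state for 62.8% of member values, and those of different knees for 62.1%. The median absolute difference in log2(CPM + 1) of a member was 0.96 between both synovia of an animal and 1.12 between synovia of different animals, and 0.91 and 1.14 without those 2 animals. In the comparison list it was 0.32 and 0.34. Between synovium and cartilage it was 1.29 within and 1.32 across operated knees. Neither the shares nor these differences were tested.

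A test of the knee, over both tissues of the 35 operated knees and without any CON library, called 1 of 150 members, against 0.729% of 40757 transcripts. This was ENSSSCT00000034643.4 (adjusted p = 2.05e-05, edgeR), and its adjusted p was 1.05e-10 without knee REPAIR 7, where 0.791% of transcripts were called. The next, ENSSSCT00000061367.3, did not pass (adjusted p = 0.0867, edgeR). That transcript was at 0 in 3 of 35 operated synovia, with a median of 167.2 and a highest value of 706.5 CPM. Leaving out the animals of the 2 libraries that went against their labels, the animal test also called ENSSSCT00000034643.4 (adjusted p = 0.0215, edgeR), then 1 of 150 members against 0.0822% of 38953 transcripts.

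ENSSSCT00000034643.4 is the 1 member whose count never rounded to 0 in CON synovium. It was at 47.0 CPM in CON 9, 38.8 in CON 11, 37.7 in CON 7, 26.1 in CON 3, 22.7 in CON 6, 20.4 in CON 4, 19.3 in CON 10, 16.1 in CON 5 and 15.8 in CON 2. In CON 12, CON 1 and CON 8 it was at 0.49, 0.27 and 0.09 CPM. No library of either tissue lay between 0.487 and 1.28 CPM, which separates a low from a high state. Synovium and cartilage were both low in 10 knees and both high in 35 of the 47. The exceptions were the knees of the 2 doubted libraries. ENSSSCT00000034643.4 is 1 of the 292 transcripts of the label check. These exceptions, and its smaller adjusted p without the doubted libraries, are therefore no separate evidence on the labels. The synovium labelled CON 11 was at 38.8 CPM with its cartilage at 0.174, and the synovium labelled REPAIR 7 was at 0.168 CPM with its cartilage at 10.2. Of the 12 animals with both synovia, 3 were low in both, 7 high in both, and the other 2 are the animals of these libraries. The cartilage level was lower, with medians of 3.19 CPM in operated cartilage and 14.4 CPM in operated synovium.

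**Figure D5:**
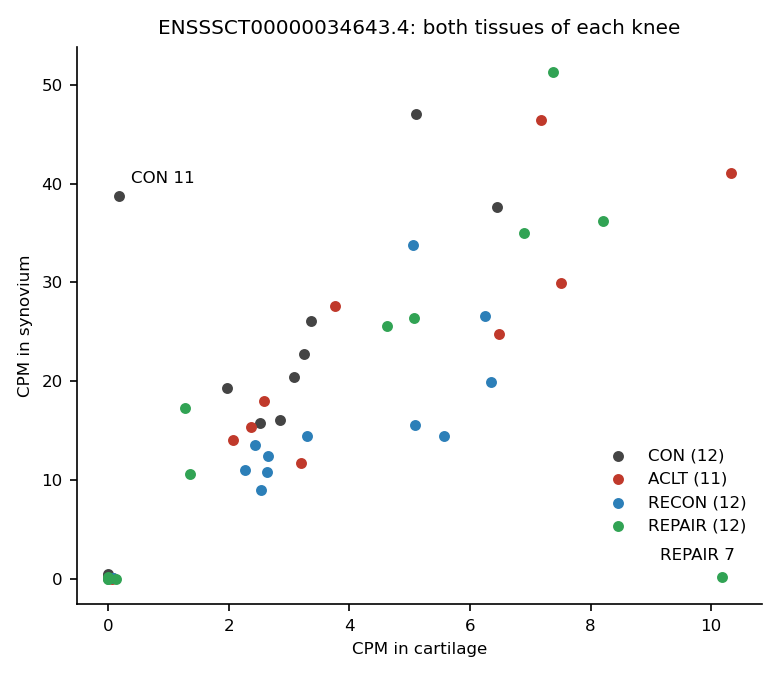
Level of ENSSSCT00000034643.4 in synovium against that in cartilage, in CPM, 1 point per listed knee. Both tissues were low or both high in all knees but CON 11 and REPAIR 7, and 10 knees lie together near 0.

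No member passed the test between operated groups in synovium. Each of 3 contrasts was fitted over all 94 listed libraries with edgeR, and each called 0 of 150 members. The background was 0.0514% of 40873 transcripts for RECON against ACLT, 0.0122% for REPAIR against ACLT and 0.267% for REPAIR against RECON. An unadjusted p below 0.05 was reached by 8, 6 and 8 members, against 8.91%, 8.0% and 10.1% of all transcripts and 4.25%, 2.77% and 4.92% of the comparison list. DESeq2 called 5, 4 and 5 members, against 0.32%, 0.321% and 0.448%. Median log2 differences over the members were 0.07, 0.02 and -0.09, where the median over all transcripts was 0 in each, and single members ranged from -9.94 to 10.25. The lowest, for REPAIR against ACLT, was that of ENSSSCT00000048150.3, which was at 0 in all 12 REPAIR and in 8 of 11 ACLT synovia, so the fitted value depends on the prior count. Without the libraries labelled CON 11 and REPAIR 7 the counts were again 0 in each, against 0.0514%, 0.00245% and 0.105%. Whether these contrasts differed between synovium and cartilage was tested by an interaction term added after the data were seen. It called 1 of 150 members for RECON against ACLT, against 0.692% of transcripts, 0 for REPAIR against ACLT (edgeR, 6 at an unadjusted p below 0.05), against 0.538%, and 1 for REPAIR against RECON, against 0.766%. Without the libraries labelled CON 11 and REPAIR 7 it called 1 member in each, against 0.675%, 0.477% and 0.621%, and for REPAIR against ACLT this was ENSSSCT00000009797.5 (adjusted p = 0.046, edgeR). With the knee as a block, as both tissues of a knee enter this contrast, 0 of 150 members passed in each (edgeR, 4, 5 and 2 at an unadjusted p below 0.05), as did 0.0% of all transcripts.

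In cartilage, operated against CON knees called 1 of 150 members, which was lower, against 2.05% of 40873 transcripts. ENSSSCT00000073763.2 was above 0 in 2 of 12 CON cartilage libraries, at 9.5 and 10.3 CPM, and in 1 of 35 operated ones, at 8.54 CPM (log2 difference -5.66, adjusted p = 0.0285, edgeR). With animal as a block 0 of 147 members tested passed (edgeR, 6 at an unadjusted p below 0.05), against 0.0154%, and DESeq2 without the block called 5. The fit with the block held only the 12 animals with both knees, so its fewer libraries and the pairing cannot be told apart. Without the libraries labelled CON 11 and REPAIR 7 the count without the block was again 1, against 2.02%.

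In synovium the operated to CON contrast was used by the rule, and its counts are a description. Here 7 of 150 members were called, all lower, where 17.3% of all transcripts were called. The rule also asked for at least 5 CPM and a high SD in CON synovium. It thus favoured transcripts that were high in a few CON knees, and the shared direction is no separate result. With animal as a block, in the 12 animals with both knees only, 1 was called, against 5.39%. Without the libraries labelled CON 11 and REPAIR 7 there were 9 without the block, against 19.9%. The member with the smallest adjusted p, ENSSSCT00000006020.3, was at 124.2 CPM in CON 6 and at 0.392 CPM or less in the other 11 CON synovia. It was at 0 to 0.503 CPM in the 35 operated synovia, so its difference rests on the CON 6 library.

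Within operated synovium, no member passed for sex (0 of 150, against 0.0479% of 39681 transcripts, edgeR), and 2 had an unadjusted p below 0.05, against 6.95% and 2.81% of the comparison list. Without the library labelled REPAIR 7, 1 member passed, ENSSSCT00000029625.4 (adjusted p = 0.0011, edgeR), against 0.0505%. It was at 0 in 21 of 35 operated synovia and at 34.0 CPM in the highest. For the RNA integrity number (RIN) 2 members passed, both lower at higher RIN, against 0.58% of all transcripts, and none with the stricter filter on low counts (edgeR, 4 at an unadjusted p below 0.05), which called 0.0% of all transcripts. For the synovitis score no member passed (0 of 150, against 0.197%, edgeR), and 6 had an unadjusted p below 0.05, against 5.28% and 1.27% of the comparison list. Without the library labelled REPAIR 7 these counts were 2 for RIN, against 0.546%, and 0 for the synovitis score (edgeR, 5 at an unadjusted p below 0.05), against 0.26%.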

How the data were processed

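Total RNA of cartilage and synovium was depleted of ribosomal RNA (KAPA mRNA HyperPrep with RiboErase) and sequenced together as paired-end reads. The authors quantified each library with Salmon 1.8.0 against Sscrofa11.1 and checked reads with FastQC 0.11.9 and MultiQC 1.12. The deposited values are estimated counts per transcript, not normalized between libraries, together with length, effective length and TPM. The deposited TPM were used only for levels per length. The authors' counts were rounded for tests and for counts of values at 0, and CPM were computed from unrounded counts over all transcripts of a library.

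Groups came from the labels, and sex, RIN, synovitis score and the animal of each knee from the study's list of animals, which lacks ACLT 12. The members and all lists were chosen with earlier results of these data known. Tests used edgeR 4.0.16 (quasi-likelihood, TMM, transcripts above 0 in at least 2 of the 94 listed libraries) in R 4.3.3, adjusted by Benjamini-Hochberg over all transcripts tested, with a threshold of 0.05. For fits with 1 coefficient per knee, the dispersion trend came from the fit without knee terms. Alternatives were DESeq2 1.42.0, limma 3.58.1 on log2(CPM + 1), filterByExpr (minimum count 10), other size factors, ACLT 12 added, leaving out each CON animal or library, an animal or knee block (the latter added later), other pseudocounts (0.5 and 5) and, added later, omission of the libraries labelled CON 11 and REPAIR 7. Sets came from average linkage on 1 minus Pearson's r, divided at a distance of 0.5. Other steps used Python 3.11.15, numpy 2.4.6, pandas 2.3.3 and scipy 1.17.1.

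Named transcripts were the 3 members with the largest SD, those at either side of the limit, the central member of each set of 10 or more, the 2 members with the smallest adjusted p for animal and for knee, and the member with the smallest adjusted p of each contrast among operated groups if past the threshold. Others are said to be chosen after their values were seen or are those that a small count refers to.

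The tests were checked on simulated counts with 200 changed transcripts. These were drawn from transcripts with a mean count over 50 and not for the present-or-absent pattern of the members. The recovery below therefore does not give the power of the tests for the members. The animal test recovered 170 and called 6 unchanged ones, and the knee test 182 and 16. The REPAIR against RECON test recovered 167 of 200 but called 528 unchanged ones, of which 16 had a mean count over 50. With filterByExpr it recovered 165 and called 41. The sex test recovered 182 and called 91 unchanged ones (12 with filterByExpr). Calls of transcripts at 0 in most libraries are thus the least certain. The animal pairing comes from the study's list of animals. Whether samples are separate beyond the animal is not stated, and no reference table used here pairs the transcripts with genes.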

Additional observations from a re-analysis of the deposited data

Results flagged for a closer look

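In the main fit, 2 members passed a test of whether differences between operated groups varied with tissue. This interaction test was added after the data were seen, and the fit did not pair the tissues of a knee. Each call was 0.667% of members, near the share of all transcripts. ENSSSCT00000023681.4 had a RECON against ACLT difference that was lower in synovium than in cartilage by a log2 value of -11.79 (adjusted p = 0.0236, edgeR), as 1 of 150 members against 0.692% of all transcripts. It was above 0 in 2 of 11 ACLT synovia, at up to 6.69 CPM, and in 0 of 12 RECON synovia, while in cartilage it was above 0 in 0 of 11 ACLT and 1 of 12 RECON libraries. ENSSSCT00000039427.3 had a REPAIR against RECON difference that was lower in synovium by a log2 value of -11.55 (adjusted p = 0.0402, edgeR), as 1 of 150 against 0.766%. It was above 0 in 3 of 12 RECON and 0 of 12 REPAIR synovia, and in 1 of 12 RECON and 5 of 12 REPAIR cartilage libraries. With filterByExpr neither passed. With the knee as a block neither passed, with log2 values of -4.27 (unadjusted p = 0.0759) and -17.01 (unadjusted p = 0.0116), both with an adjusted p of 1 (edgeR). Both values depend on the prior count, because a group is at 0 throughout.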

How the results depend on the processing

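Leaving out each CON library in turn kept 103 to 121 of the 150 members, and pseudocounts of 0.5 and 5 kept 133 and 103, but ranking by the median absolute deviation kept 38. Partner counts in operated synovium were 28 to 36 in every alternative run. For the animal effect DESeq2 called 5 members (3353 transcripts in all, against 7), limma 1 (123), omission of the libraries labelled CON 11 and REPAIR 7 1 (32), and leaving out each animal 0 to 1 (1 without the animal of CON 2). For the knee effect limma called 2 members (862 transcripts, against 297). Among operated groups in synovium DESeq2 called 5, 4 and 5 members (123, 113 and 158 transcripts, against 21, 5 and 109), and filterByExpr left 0 each (8, 3 and 25 transcripts). Operated against CON cartilage gave 5 members with DESeq2. With animal as a replicate block, the count was 0 in cartilage (6 transcripts, against 839) and 1 in synovium (2117, against 7075). These fits held only 1 tissue of the 12 animals with both knees, and the main fit all 94 listed libraries. Within 1 tissue, contrasts among operated groups hold 1 knee per animal and have no block. For the differences between tissues, a replicate block for each knee left 0 members in every contrast (0 transcripts, against 283, 220 and 313). Without the library labelled REPAIR 7 the sex term gave 1 member, and filterByExpr gave 0 for RIN. The REPAIR against ACLT difference between tissues gave 1 member without the 2 synovium libraries labelled CON 11 and REPAIR 7. The effective-length counts under filterByExpr were 0 for the first component and 4 and 1 for the second in synovium and cartilage. The causes were not tested. Members at 0 in many libraries have few informative values, so their fitted differences are imprecise at this depth.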
